A study of Caenorhabditis elegans with 68 samples.

Results

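The insulin receptor pathway of Caenorhabditis elegans was followed from its receptor to its transcription factor in newly hatched first-stage (L1) larvae. Its 8 members were chosen by gene name among the 30470 lines of the expression table, and all 8 were found: daf-2, age-1, daf-18, pdk-1, akt-1, akt-2, sgk-1 and daf-16. DAF-2 is the only insulin and IGF-1 receptor of this nematode. When it is active it recruits the lipid kinase AGE-1, whose product PIP3 brings the kinases PDK-1, AKT-1, AKT-2 and SGK-1 into play, and these keep the FOXO transcription factor DAF-16 out of the nucleus. DAF-18, a lipid phosphatase, acts against AGE-1. In L1 larvae the pathway is known for governing arrest, stress resistance and the entry into dauer.

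Strains were kept at 20 °C, and the larvae, synchronised at hatching and not starved, came from mothers exposed to NaCl at 50 mM or at 300 mM. The 48 libraries fell into 14 groups of 7 strains, in 4 sets. The labels name no batch or experiment for them, and the sets were inferred here from the strains compared and their replicate numbers. Set D held the N2 wild type (WT) and the mutant MT12999, mir-85(n4117) II, referred to as n4117, 2 libraries in each group. MHE324 larvae of heterozygous mothers made up set E, 3 libraries in each group: F1het larvae carried mir-85(n4117) over the balancer mIn1 [mIs14 dpy-10(e128)], and F1KO larvae carried n4117 on both chromosomes. Set F was MHE339 alone, mir-85(gcp109) II, called gcp109, whose microRNA gene lacks its 3p sequence, 4 libraries in each group. Set G paired N2 with MHE310, hrg-1(gcp100) X, called gcp100, a change of the site for mir-85 in the haem transporter gene hrg-1, 5 libraries in each group. No group carried a mutation in a gene of the insulin receptor pathway. The level of mir-85 itself was not analysed here, so it does not check the labels of its mutants. hrg-1, still transcribed in gcp100, had 20.2 ± 9.39 TPM (SD, n = 5) in N2 and 15.3 ± 5.37 TPM (SD, n = 5) in gcp100 at 50 mM, with overlapping libraries. At 300 mM it had 17.97 ± 6.91 TPM (SD, n = 5) in N2 and 33.8 ± 11.47 TPM (SD, n = 5) in gcp100. There the gcp100 libraries, 27.8 to 54.3 TPM, all lay above the N2 libraries, 11.8 to 27.1 TPM. Whether the level of hrg-1 can check the labels of set G was not tested. Levels are given in TPM, the share of a gene among all transcripts of a library after division by gene length, a unit that keeps no sequencing depth. Whole larvae were sampled, so fewer cells of a type and less RNA per cell cannot be told apart.

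In the deposited table the values of set G did not stand on the lines of their genes, and their order was inferred, since those columns carry no gene names of their own. Of the members, age-1, akt-1 and akt-2 kept their lines, daf-2, daf-18 and daf-16 moved by 1 line, pdk-1 by 2 and sgk-1 by 3. As deposited, the lines of daf-2, sgk-1 and daf-16 held means of 1023, 138 and 26.1 TPM in set G, and once moved they held 118.6 TPM, 31.04 TPM and 270.0 TPM, beside 107, 29.2 and 236 TPM over the other sets. Set G values of the 5 moved members rest on this step.

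The libraries differed in markers of cell types, in part with exposure and in part within groups. All 7 markers of intestine, 8 of neurons, 5 of body wall muscle, 5 of pharynx and 5 of hypodermis were detected. The summed level of 11 sperm markers lay between 1.62 and 84.8 TPM in 45 libraries, and at 230.2, 523 and 1734 TPM in 3 libraries of set G at 300 mM: N2 replicate 5, gcp100 replicate 1 and N2 replicate 3. Larvae of this stage hold no sperm. In these 3 libraries 0 of the 11 markers were at 0 throughout, which also held over the other 45. In the 3, 6 germline and maternal markers summed to 299 to 1312 TPM, against 2.31 to 87.8 TPM in the other 45. Outside set E the germline markers had a median sum of 7.32 TPM at 50 mM and 48.2 TPM at 300 mM. The sperm markers there had medians of 2.805 and 15.35 TPM, and in set E of 5.51 and 3.57 TPM. Every library with a sperm sum over 7.21 TPM was at 300 mM. Leaving out the 3 libraries therefore does not make the exposures alike in these markers. Set E differed from the other sets at 50 mM by its hypodermal markers, whose sum was 154 to 360 TPM against 46.7 to 87.5 TPM. At 300 mM these sums overlapped, 64.9 to 234 TPM in set E against 44.5 to 976 TPM. The highest was that of N2 replicate 3, the library richest in sperm markers. The 8 neuronal markers summed to 356 to 947 TPM in the 3 libraries and to 705 to 1881 TPM in the others. Strain, set and these differences cannot be told apart between sets. The calls of members that rest on these 3 libraries are given with and without them.

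The 8 transcripts were detected in all 48 libraries and spanned more than an order of magnitude. With TPM, which are per length, daf-16 was the most abundant, with a mean of 240.4 TPM over the 14 group means, and stood above daf-2 in 48 of 48 libraries without overlap in any of the 14 groups. The receptor gene daf-2 followed at 107 TPM and akt-1 at 87.6 TPM. These neighbours kept that order in 40 of 48 libraries. Their ranges were separate in 4 of 14 groups, which are the groups of set E, and overlapped in the others. Whether the 2 genes differ within a group was not tested. Next came akt-2 at 65.5 TPM, below akt-1 in 48 of 48 libraries. The kinase genes pdk-1 and sgk-1 had means of 30.1 and 29.4 TPM, and pdk-1 was the higher in 25 of 48 libraries. At the low end daf-18 and age-1 averaged 17.5 and 14.5 TPM, and daf-18 was the higher in 25 of 48. Among 15013 genes with a mean of at least 1 TPM, daf-16 exceeded 96.7% and age-1 exceeded 56.3%.

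**Figure D1:**
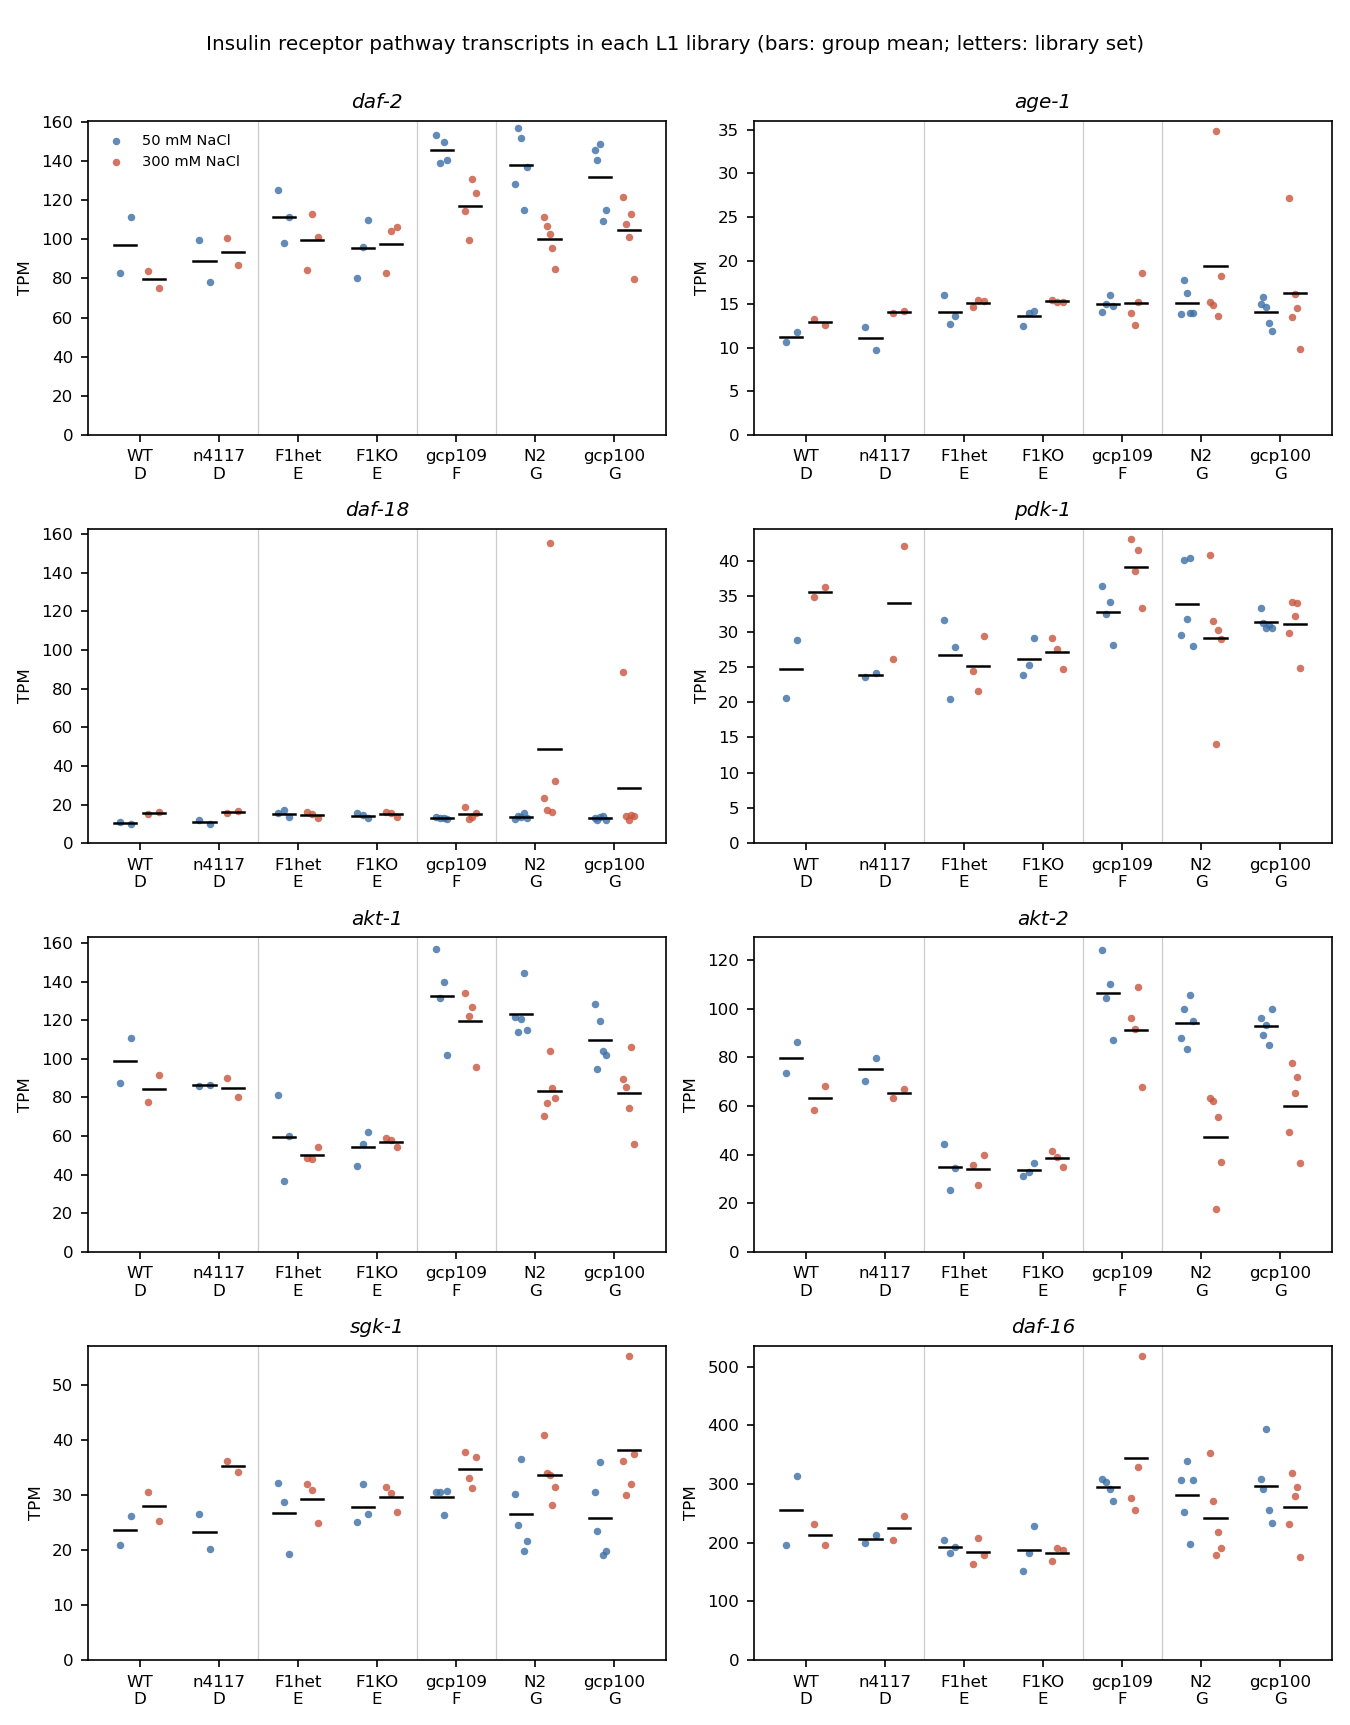
Level in TPM (vertical axes, from 0) of the 8 pathway genes in each of the 48 libraries, by strain and set (horizontal axes), at 50 mM (blue) and 300 mM (red) NaCl, with bars at the group means. In set E akt-1 and akt-2 sit low at 50 mM, and in set G at 300 mM daf-18 reaches 88.5 and 155 TPM in 2 libraries.

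Salt exposure of the mothers went with small differences in the larvae, and not all members moved one way. Averaged over the 7 strains, sgk-1, the serum- and glucocorticoid-inducible kinase, rose at 300 mM, and the receptor gene daf-2 and the kinase gene akt-2 fell. The log2 difference of TPM + 1, 300 minus 50 mM, was 0.31 (SE 0.083, adjusted p = 0.00886) for sgk-1, -0.20 (SE 0.0618, adjusted p = 0.0246) for daf-2 and -0.34 (SE 0.106, adjusted p = 0.0293) for akt-2. Adjusted p-values are from limma with Benjamini-Hochberg adjustment over 19558 genes, two-sided, and a call means an adjusted p under 0.05. Thus 3 of 8 members were called, 1 up and 2 down, where 12.3% of all genes were called, 7.1% up and 5.25% down. Of the calls over all genes 57.5% were up, and 45.7% when libraries were rescaled by median of ratios. The other members had -0.21 (SE 0.0775, adjusted p = 0.0692) for akt-1, 0.43 (SE 0.183, adjusted p = 0.121) for daf-18, 0.17 (SE 0.0892, adjusted p = 0.239) for age-1, 0.13 (SE 0.0845, adjusted p = 0.335) for pdk-1 and -0.06 (SE 0.0914, adjusted p = 0.685) for daf-16. The median over the 8 members was 0.03, beside 0.01 over all genes tested.

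Which members were called depended on the libraries that entered. Without the 3 libraries rich in sperm markers, 5 of 8 members were called, beside 17.8% of all genes: daf-2, akt-1 and akt-2 down, sgk-1 and daf-18 up. Over the 5 strains of the other sets, 2 of 8 were called, beside 14.9% of all genes: sgk-1 at 0.26 and daf-18 at 0.25. In those 5 strains daf-2 had a log2 difference of -0.13 (adjusted p = 0.281) and akt-2 one of -0.12 (adjusted p = 0.428). sgk-1 was called under each of the 8 alternatives and with each of the 48 libraries left out in turn, with adjusted p between 0.00399 and 0.0306 over the latter.

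**Figure D2:**
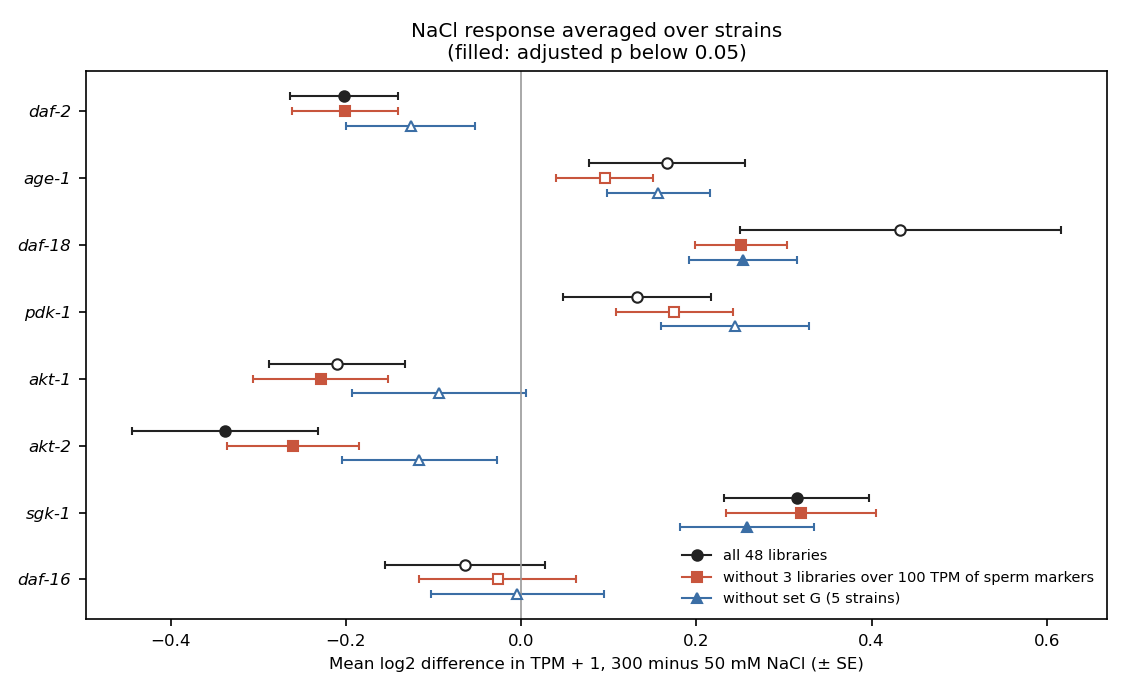
Averaged log2 difference in TPM + 1, 300 minus 50 mM NaCl (horizontal axis, points with SE bars), of each member over all 48 libraries, without the 3 libraries over 100 TPM of sperm markers, and without set G, with filled symbols where the adjusted p is below 0.05. sgk-1 is filled in all 3 versions, and the value of daf-18 shrinks from 0.43 to 0.25 while its SE shrinks from 0.183 to 0.0524.

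daf-2 (WBGene00000898) lies on chromosome III at 2994514 to 3040846 on the minus strand of WBcel235 and has 7 annotated transcripts, with the noncoding linc-143 (3.79 TPM) inside an intron. In N2 it stood at 128, 157, 152, 115 and 137 TPM after 50 mM and at 111, 107, 103, 95.8 and 84.6 TPM after 300 mM. Its libraries in gcp109 held 153, 139, 149.8 and 141 TPM at 50 mM and 115, 99.7, 131 and 124 TPM at 300 mM. In both strains all 300 mM libraries lay below all 50 mM libraries. The same held for 3.72% of 19558 genes in N2 and 3.28% in gcp109. For gcp100 the levels were 146, 140.3, 149, 109 and 115 TPM against 121, 108, 101, 113 and 79.9 TPM, so the exposures overlapped. WT had 82.6 and 111 TPM against 84.03 and 75.2 TPM, and n4117 had 99.8 and 77.98 TPM against 101 and 86.8 TPM. Set D therefore overlapped too, with opposite signs in its strains.

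Set E showed no separation of daf-2 either: F1het had 125, 98.1 and 111 TPM at 50 mM and 84.3, 113 and 101 TPM at 300 mM. F1KO had 80.1, 96.00 and 110.0 TPM and 82.6, 104 and 106 TPM. The mean was lower at 300 mM in 5 of 7 strains. The averaged call was lost when any of 4 libraries of set D was left out (WT 50 mM replicate 2, WT 300 mM replicate 2, n4117 50 mM replicate 1 or n4117 300 mM replicate 2), with adjusted p of 0.0777, 0.0562, 0.0715 and 0.0617. The value then ranged over all left-out libraries from -0.23 to -0.17.

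The opposing lipid enzymes were the scarcest members. age-1 (WBGene00000090), the catalytic subunit of phosphatidylinositol 3-kinase, lies on chromosome II at 11519328 to 11527054 (minus strand), and 244 of its exonic bases are shared with B0334.10 on the other strand, listed at a mean of 0.136 TPM. daf-18 (WBGene00000913), the gene of the lipid phosphatase, lies on chromosome IV at 420011 to 425177 (minus strand) and overlaps no annotated gene. The mean TPM of age-1 was higher at 300 mM in 7 of 7 strains. The strain-wise differences of log2(TPM + 1) ran from -0.0036 in gcp109 to 0.33 in n4117 and none passed the test: the lowest adjusted p for age-1 was 0.535, in F1KO. There age-1 stood at 12.55, 14.02 and 14.2 TPM after 50 mM and at 15.5, 15.2 and 15.2 TPM after 300 mM.

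daf-18 in set D was at 10.8 and 10.1 TPM in WT at 50 mM and at 15.03 and 16.15 TPM at 300 mM. In n4117 it was at 11.8 and 10.1 TPM and 15.6 and 16.6 TPM. Each strain of this set was separate by exposure, with log2 differences of 0.53 and 0.52 that did not pass (adjusted p = 0.448 and 0.373). With 2 libraries in each group, every 300 mM library was higher for 24.6% of 19558 genes in WT and 29.3% in n4117. Rescaling moved the median of all genes in these strains by -0.10 and -0.17, and daf-18 then differed by 0.42 and 0.33. Set F had 13.4, 13.3, 13.1 and 12.7 TPM at 50 mM and 18.7, 12.55, 13.6 and 15.8 TPM at 300 mM, which overlap. In set E the levels were 15.6, 16.97 and 13.7 TPM against 15.97, 15.2 and 13.3 TPM in F1het, and 15.4, 14.4 and 13 TPM against 16.3, 15.6 and 13.6 TPM in F1KO. No exposure stood apart there.

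Set G held the extreme values of daf-18. N2 had 12.4, 14.1, 13.8, 15.8 and 12.97 TPM at 50 mM and 23.4, 17.1, 155, 16.4 and 32.5 TPM at 300 mM. gcp100 had 12.8, 12.1, 13.7, 14.1 and 11.9 TPM at 50 mM and 88.5, 14.2, 11.97, 14.7 and 13.9 TPM at 300 mM. The 3 highest, 155, 88.5 and 32.5 TPM, are the 3 libraries with the highest sums of sperm markers, in the same order. age-1 was highest in the same libraries in the same order, at 34.8, 27.2 and 18.2 TPM in set G. The ratio of daf-18 to age-1, which needs no scaling between libraries, was 4.46, 3.26 and 1.78 in them and 0.738 to 1.53 in the other 45. The part of sperm or germline RNA in these values was not tested. Without the 3 libraries the averaged log2 difference of daf-18 was 0.25 in place of 0.43, and it passed (adjusted p = 0.000655). That of age-1 was 0.10 (SE 0.0556, adjusted p = 0.256) in place of 0.17, and it did not pass with or without them.

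**Figure D3:**
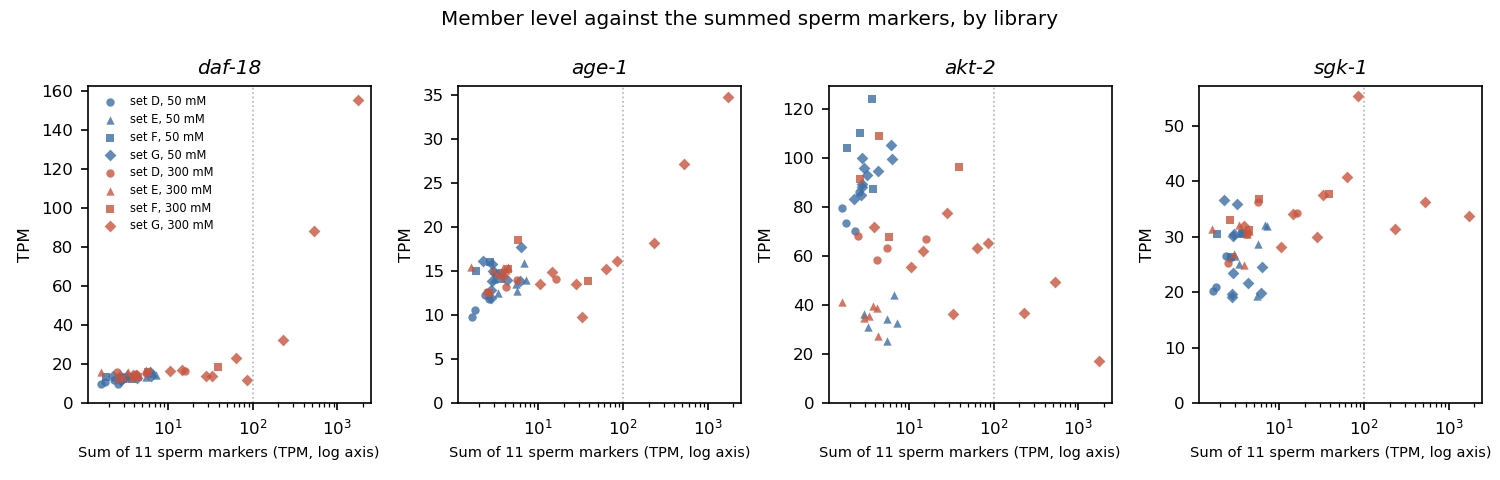
Level in TPM of daf-18, age-1, akt-2 and sgk-1 (vertical axes) in each library against the summed TPM of 11 sperm markers (horizontal log axes), coloured by exposure and shaped by set, with a dotted line at 100 TPM. To the right of the line lie 3 libraries of set G, in which daf-18 is at 32.5, 88.5 and 155 TPM and sgk-1 between 31.4 and 36.2 TPM.

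pdk-1 (WBGene00003965), the kinase that phosphorylates AKT and SGK, lies on chromosome X at 1321344 to 1327986 (plus strand), with 15 exonic bases shared with F21E9.2 on the other strand (0.267 TPM). Its mean was higher at 300 mM in 4 of 7 strains and lower in 3. WT of set D had 20.6 and 28.8 TPM at 50 mM and 34.9 and 36.3 TPM at 300 mM, and n4117 had 23.6 and 24.1 TPM and 26.1 and 42.2 TPM, separate in both strains. Such a separation upward was found for 24.6% of all genes in WT and 29.3% in n4117. In N2 the libraries held 29.5, 40.2, 31.7, 40.4 and 27.9 TPM and 40.9, 31.5, 14.04, 30.2 and 29.01 TPM, which overlap, with the lowest in the library richest in sperm markers. The strain-wise log2 differences ran from -0.27 in N2 to 0.53 in WT, and none passed, with a lowest adjusted p of 0.395 in gcp109.

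The AKT kinases phosphorylate DAF-16, and akt-1 is the more abundant of the pair. akt-1 (WBGene00000102) lies on chromosome V at 10248905 to 10252845 (plus strand), and its last 8 exonic bases are shared with rop-1 on the other strand, which had 50.98 TPM. In N2 akt-1 stood at 122, 114, 120.5, 145 and 115 TPM at 50 mM and at 70.5, 76.8, 104, 84.9 and 79.9 TPM at 300 mM. The exposures did not overlap, and 3.72% of all genes in N2 likewise had every 300 mM library lower. The log2 difference of akt-1, -0.57, had an adjusted p of 0.0529 and did not pass. gcp100 had 129, 94.8, 119.4, 104 and 102 TPM against 89.7, 85.3, 74.5, 106 and 55.8 TPM, with overlap. The mean was lower at 300 mM in 6 of 7 strains, the exception being F1KO. The averaged difference passed when any of 5 libraries was left out (gcp109 50 mM replicate 4, F1het 50 mM replicate 2, F1KO 50 mM replicate 1, N2 300 mM replicate 3 or gcp100 300 mM replicate 4), with adjusted p between 0.0138 and 0.0496.

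akt-2 (WBGene00000103) lies on chromosome X at 14147700 to 14152070 (plus strand) and overlaps no annotated gene. It fell in N2, from 88.2, 99.9, 83.4, 106 and 94.9 TPM to 63.3, 62.2, 17.5, 55.6 and 36.99 TPM. All 300 mM libraries lay below all 50 mM libraries, as for 3.72% of all genes in N2. The group means of akt-2 were 94.4 ± 8.89 TPM (SD, n = 5) and 47.1 ± 19.6 TPM (SD, n = 5). The log2 difference was -1.12 (SE 0.273, adjusted p = 0.0257), the only member called in N2, where 4.3% of all genes were called. The library at 17.5 TPM is the one with 1734 TPM of sperm markers. Without the 3 libraries the difference was -0.63 (adjusted p = 0.0885). The call was also lost without any one of N2 50 mM replicates 1, 2, 4 and 5 and N2 300 mM replicate 5, with adjusted p from 0.053 to 0.0685.

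In gcp100 akt-2 stood at 96.2, 89.3, 93.4, 85.1 and 100.1 TPM and 49.4, 77.8, 65.4, 71.9 and 36.4 TPM, without overlap, and its log2 difference of -0.67 did not pass (adjusted p = 0.312). WT had 73.5 and 86.2 TPM against 58.5 and 68.3 TPM, and n4117 had 70.4 and 79.9 TPM against 63.3 and 67.1 TPM, again without overlap and with adjusted p of 0.655 and 0.706. Every 300 mM library was lower for 1.97% of all genes in gcp100, 12.0% in WT and 9.90% in n4117. gcp109 held 124, 104, 110.5 and 87.3 TPM at 50 mM and 96.3, 91.5, 109 and 67.8 TPM at 300 mM, which overlap. Set E, lower than the other sets at 50 mM, had 44.4, 25.6 and 34.5 TPM against 35.7, 27.4 and 39.7 TPM in F1het and 31.4, 33.01 and 36.6 TPM against 41.4, 39.1 and 34.7 TPM in F1KO. There the exposures overlapped and the signs were opposite. The averaged call was lost without WT 50 mM replicate 2, WT 300 mM replicate 1, n4117 50 mM replicate 2, n4117 300 mM replicate 1 or F1het 50 mM replicate 1, with adjusted p between 0.0514 and 0.0633.

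Set E was lower than the other sets for the AKT genes at 50 mM. Its 6 libraries held 25.6 to 44.4 TPM of akt-2, against 70.4 to 124 TPM in the 18 libraries of the other sets. For akt-1 the ranges were 36.5 to 81.2 TPM against 86.1 to 157 TPM. The share of all genes that separate these libraries likewise was not computed. The separation is thus not shown to be particular to the AKT genes. daf-16 was lower by median, 187 against 292 TPM, with overlapping ranges, while sgk-1 had medians of 27.6 and 26.3 TPM and age-1 of 13.8 and 14.1 TPM. At 300 mM the ranges of akt-2 overlapped, 27.4 to 41.4 TPM in set E against 17.5 to 109 TPM, with medians of 37.4 and 64.4 TPM. Those of akt-1 overlapped too, 47.8 to 58.7 TPM against 55.8 to 134 TPM. No test of set E against the other sets was made, since strain, balancer, maternal genotype and set cannot be told apart.

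sgk-1 (WBGene00004789), a kinase that acts in the insulin pathway and in the TORC2 pathway, lies on chromosome X at 16254842 to 16262122 (minus strand) with no overlapping gene. Its mean was higher at 300 mM in 7 of 7 strains. In gcp100 it stood at 30.6, 23.4, 35.98, 19.1 and 19.8 TPM at 50 mM and 36.2, 29.9, 55.3, 32.02 and 37.5 TPM at 300 mM, and in N2 at 30.1, 24.5, 36.6, 19.8 and 21.6 TPM and 40.8, 34.1, 33.7, 28.2 and 31.4 TPM. The exposures overlapped in both, and the libraries with the same replicate number in the 2 strains ranked alike at 50 mM. gcp109 had 30.5, 30.6, 26.4 and 30.7 TPM at 50 mM and 37.8, 33.1, 31.3 and 36.8 TPM at 300 mM, and n4117 had 26.5 and 20.2 TPM and 36.2 and 34.2 TPM. These 2 strains had no overlap. Every 300 mM library was higher for 4.69% of all genes in gcp109 and 29.3% in n4117.

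In WT sgk-1 was at 20.96 and 26.2 TPM and 30.5 and 25.3 TPM, in F1het at 32.1, 28.7 and 19.3 TPM and 32.1, 30.99 and 24.9 TPM, and in F1KO at 25.04, 31.99 and 26.5 TPM and 31.4, 30.4 and 26.9 TPM. All 3 overlapped. The strain-wise log2 differences lay between 0.09 in F1KO and 0.59 in n4117, and no strain alone passed the test, with a lowest adjusted p of 0.293 in gcp100. In the 3 libraries rich in sperm markers sgk-1 was at 33.7, 36.2 and 31.4 TPM, within the range of the other libraries of set G at 300 mM, 28.2 to 55.3 TPM.

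daf-16 (WBGene00000912), the FOXO factor at the end of the pathway, has 11 annotated transcripts on chromosome I, which a gene-level TPM does not separate, and shares 84 exonic bases with the noncoding H36N01.5 on the other strand (0.196 TPM). Of the 8 members it had the averaged log2 difference nearest 0, -0.06 (SE 0.0914) and values from -0.23 in N2 to 0.17 in gcp109. The gcp109 libraries at 300 mM held 277, 256, 329 and 518 TPM, where 1 library stood far above the other 3. Its libraries at 50 mM held 309.5, 303, 292 and 272 TPM. A level of transcript does not report where the DAF-16 protein is.

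Within single strains few differences passed. At an adjusted p under 0.05 the members called were 0 of 8 in WT (0% of all genes), 0 of 8 in n4117 (0.0468%), 0 of 8 in F1het (0.00647%), 0 of 8 in F1KO (0.0259%), 0 of 8 in gcp109 (1.35%) and 0 of 8 in gcp100 (0.622%). At an unadjusted p under 0.05 in limma there were 1 in WT (9.31% of all genes), 2 in n4117 (12.2%), 0 in F1het (11.4%), 0 in F1KO (11.8%), 1 in gcp109 (14.9%) and 4 in gcp100 (13.1%). The 4 in gcp100 were akt-1, akt-2 and daf-2, all lower at 300 mM, and sgk-1, higher. In N2, where akt-2 was called, 4 of 8 had an unadjusted p under 0.05 (24.4% of all genes): daf-2, akt-1 and akt-2, lower at 300 mM, and daf-18, higher. In gcp109, where the replicate numbers pair the libraries, the fit with the replicate as a block called 1 of 8 members, daf-2 at -0.32 (adjusted p = 0.0483), beside 12.5% of all genes.

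**Figure D4:**
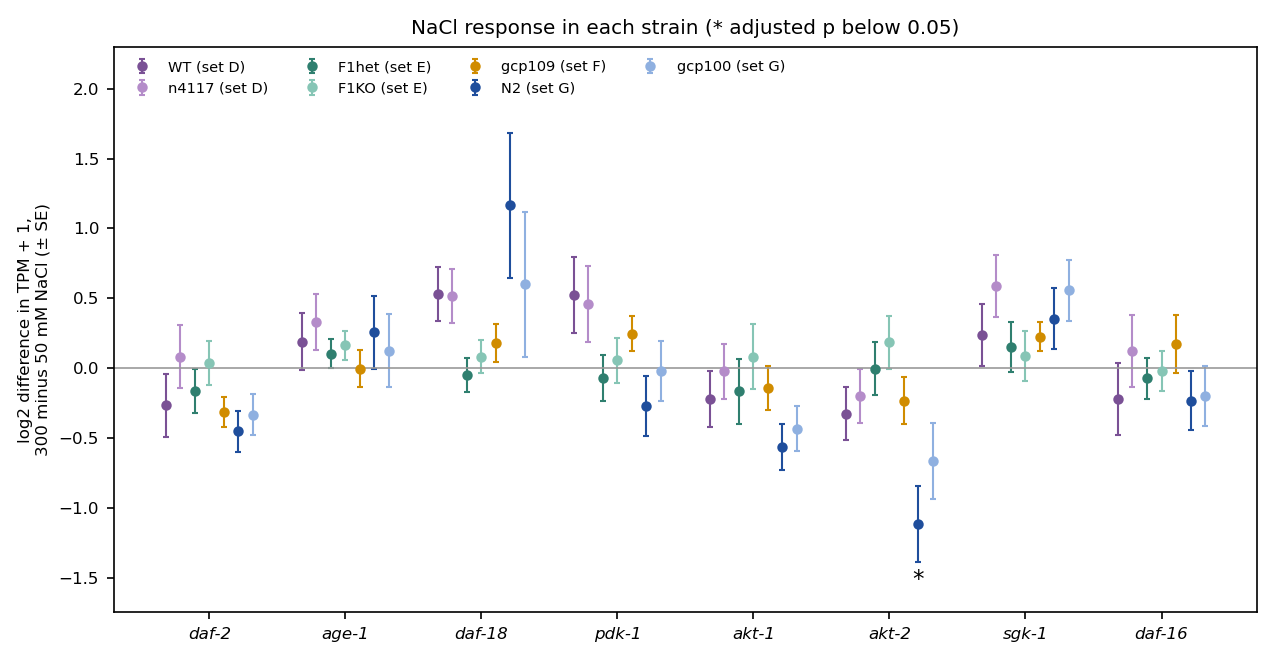
Log2 difference in TPM + 1, 300 minus 50 mM NaCl (vertical axis, points with SE bars), of each member in each of the 7 strains, with an asterisk at an adjusted p below 0.05. akt-2 in N2, at -1.12, carries the only asterisk, and the 7 points of sgk-1 all lie above 0.

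The 7 salt responses were not shown to differ between strains for any member. A limma F test of any difference among them called 0 of 8 members (0.465% of all genes), and 1 of 8, akt-2, had an unadjusted p under 0.05 (6.42% of all genes; adjusted p = 0.409). The response of n4117 minus that of WT gave 0 of 8 at an adjusted p under 0.05 (0% of all genes) and 0 at an unadjusted one (1.16%). F1KO minus F1het gave 0 of 8 (0%) and 0 (2.39%), and gcp100 minus N2 gave 0 of 8 (0%) and 0 (1.22%). For gcp109 minus N2 the counts were 0 of 8 (0%) and 1 (3.18%), which was akt-2 at 0.88 (SE 0.373, adjusted p = 0.873). That difference was 0.57 without N2 300 mM replicate 3 and 0.40 (SE 0.257) without the 3 libraries rich in sperm markers. The standard errors of these differences ranged from 0.146 to 0.731, which bounds how small a difference between responses these libraries can show.

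No member was called between strains of 1 set at the same exposure. Between n4117 and WT 0 of 8 were called at 50 mM (0.0134% of all genes) and 0 of 8 at 300 mM (0.02%), with 0 and 0 at an unadjusted p under 0.05 (1.32% and 2.2%). F1KO against F1het gave 0 of 8 at 50 mM (0.0194%) and 0 of 8 at 300 mM (0.0194%), with 0 and 0 unadjusted (3.14% and 5.66%). gcp100 against N2 gave 0 of 8 at each exposure (0% and 0%), with 0 and 0 unadjusted (0.334% and 5.76%). Over these 6 comparisons the log2 differences of the members lay between -0.66 and 0.43, with standard errors of 0.103 to 0.517.

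gcp109 was set beside N2 of another set, so strain and set cannot be told apart. At 50 mM 0 of 8 members were called (0.0122% of all genes; 0 at an unadjusted p under 0.05, 1.04%). At 300 mM 1 of 8 was called (1.45% of all genes), akt-2, which was higher in gcp109 by 1.05 (SE 0.264, adjusted p = 0.0389). At an unadjusted p under 0.05 there were 5 of 8 (17.7% of all genes): pdk-1, akt-1, akt-2, daf-16 and daf-18. For akt-2 the gcp109 libraries lay between 67.8 and 109 TPM and the N2 libraries between 17.5 and 63.3 TPM, without overlap. The share of all genes separated likewise between these groups was not computed. Of all calls 76.4% were higher in gcp109, and 65.1% after rescaling. Without the 3 libraries rich in sperm markers akt-2 differed by 0.57 (adjusted p = 0.34), with the replicate as a block by 0.94 (adjusted p = 0.145), and after rescaling by 0.95 (adjusted p = 0.0503). Leaving out any one of gcp109 replicates 1, 2 and 3 or N2 replicates 3 and 5 also ended the call, with adjusted p from 0.0691 to 0.177.

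Regulators around the core were read from a list of 29 adaptors, phosphatases, 14-3-3 proteins, TOR complex subunits and nuclear or membrane regulators. In the averaged response 5 of 29 rose and 1 of 29 fell, beside 7.1% of all genes that rose and 5.25% that fell, with a median of -0.02 beside 0.01 over all genes. Those that rose with the smallest p were prmt-1, at 0.37 (SE 0.0659, adjusted p = 0.000134), rle-1, at 0.45 (SE 0.0814, adjusted p = 0.000162), hcf-1, at 0.49 (SE 0.108, adjusted p = 0.0016), and imb-2, at 0.34 (SE 0.0817, adjusted p = 0.00422). PRMT-1 methylates DAF-16 and blocks its phosphorylation by AKT, RLE-1 is a ubiquitin ligase for DAF-16, HCF-1 binds and represses DAF-16 in the nucleus, and IMB-2 is a transportin that carries DAF-16 into it. The 4 thus include genes known to favour DAF-16 in the nucleus and genes known to oppose it. In gcp109 prmt-1 stood at 320.4 ± 37.2 TPM (SD, n = 4) at 50 mM and 404 ± 71.2 TPM (SD, n = 4) at 300 mM.

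Named after their values were seen, the remaining calls were sir-2.1, a sirtuin deacetylase, which rose by 0.20 (SE 0.0566, adjusted p = 0.0158) on the log2 scale, and pqm-1, a transcription factor whose nuclear presence alternates with that of DAF-16, which fell by 0.30 (SE 0.0983, adjusted p = 0.0376). Also outside the naming rule, the regulatory subunit gene aap-1, partner of AGE-1, was at 0.16 (SE 0.0872, adjusted p = 0.264) and did not pass. Without the 3 libraries 5 of 29 rose and 2 fell, beside 17.8% of all genes called in either direction, and without set G 5 rose and 1 fell, beside 14.9%.

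Genes reported to depend on DAF-16 were read from lists taken from general knowledge of daf-2 mutants, mostly adults. Of 15 genes reported as higher in daf-2 mutants through DAF-16, 13 were tested. In the averaged response 1 rose and 2 fell, beside 7.1% and 5.25% of all genes. By sign alone 11 of 13 were lower at 300 mM and 2 higher, with a median log2 difference of -0.43 beside 0.01 over all genes. In N2 11 were lower (median -1.28) and in gcp100 9 (median -0.50), while in gcp109 8 were higher and 5 lower (median 0.24). Over all genes the medians were -0.16 in N2, -0.15 in gcp100 and -0.02 in gcp109. The counts by sign in N2 and gcp100 include the 3 libraries rich in sperm markers. sod-3, a mitochondrial superoxide dismutase and the usual reporter of DAF-16 activity, rose by 1.79 (SE 0.22, adjusted p = 3.2e-07), and went from 2.62 ± 0.905 TPM (SD, n = 4) to 44.9 ± 8.03 TPM (SD, n = 4) in gcp109. In F1het it was at 2.25 ± 2.68 TPM (SD, n = 3) and 0.867 ± 0.222 TPM (SD, n = 3), so the rise was not seen there, and an F test found its 7 responses to differ (adjusted p = 0.0348). icl-1, the glyoxylate cycle enzyme, fell by 0.90 (SE 0.161, adjusted p = 0.000134), from 1652 ± 470.1 TPM (SD, n = 5) to 397 ± 107 TPM (SD, n = 5) in N2. dod-3 fell by 0.73 (SE 0.235, adjusted p = 0.0332), a call that was lost without any one of 6 libraries: WT 50 mM replicate 1, WT 300 mM replicate 2, n4117 50 mM replicate 1, n4117 300 mM replicate 2, F1het 50 mM replicate 2 or F1het 300 mM replicate 1 (adjusted p up to 0.103). Without set G icl-1 and dod-3 did not pass (adjusted p = 0.109 and 0.266), and sod-3 did.

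Some of these genes were also called within single strains. icl-1 differed by -2.06 (SE 0.235, adjusted p = 6.9e-05) in N2 and by -1.31 (SE 0.235, adjusted p = 0.0101) in gcp100, and its 7 responses differed by the F test (adjusted p = 0.0219). In gcp109 sod-3 rose by 3.69 (SE 0.224, adjusted p = 0.000251), and lys-7, a lysozyme gene, fell, with a difference of -1.54 (SE 0.206, adjusted p = 0.0102). Between gcp109 and N2 at 300 mM, of different sets, 3 of 13 were higher in gcp109 at an adjusted p under 0.05 (1.45% of all genes called): icl-1 by 1.53 (SE 0.246, adjusted p = 0.00198), and the small heat shock genes hsp-16.2 by 2.97 (SE 0.597, adjusted p = 0.0102) and hsp-16.1 by 3.15 (SE 0.674, adjusted p = 0.0147). hsp-16.1 has a near-identical copy in the genome, so its level is uncertain. Both heat shock calls were lost without the 3 libraries rich in sperm markers, at 2.76 and 2.97 (adjusted p = 0.124 and 0.148). Without gcp109 300 mM replicate 3 both were lost (adjusted p = 0.0594), and that of hsp-16.1 also without replicate 1 or 2 (adjusted p = 0.0599 and 0.0904). icl-1 lost its call without the 5 libraries over 50 TPM of sperm markers (1.42, adjusted p = 0.0733).

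Of 13 genes reported as lower in daf-2 mutants, 12 were tested, 4 fell and 1 rose, beside 5.25% and 7.1% of all genes. By sign 7 were lower and 5 higher, with a median of -0.10 beside 0.01 over all genes. dod-24, a CUB-like domain gene also known from innate immunity, fell by 2.21 (SE 0.179, adjusted p = 4.1e-11), from 78.1 ± 36.5 TPM (SD, n = 4) to 4.15 ± 1.21 TPM (SD, n = 4) in gcp109. dod-22 fell by 1.64 (SE 0.254, adjusted p = 1.6e-05) and dod-17 by 0.81 (SE 0.201, adjusted p = 0.00508). nuc-1, a DNase II nuclease, rose by 0.42 (SE 0.123, adjusted p = 0.0193), a call that was lost without WT 300 mM replicate 2 or n4117 50 mM replicate 2 (adjusted p = 0.0564 and 0.0667). Within strains dod-24 was called in N2, at -2.69 (SE 0.422, adjusted p = 0.00118), in gcp100, at -3.05 (SE 0.422, adjusted p = 0.00145), in gcp109, at -3.87 (SE 0.296, adjusted p = 0.00113), and in n4117, at -3.40 (SE 0.319, adjusted p = 0.0309). The call in n4117 was lost with no filter (adjusted p = 0.0734), after rescaling (0.0523) and without n4117 50 mM replicate 1 (0.281) or 2 (0.433) or 300 mM replicate 2 (0.103). dod-22 was called in gcp109, at -3.46 (SE 0.251, adjusted p = 0.00089). In set E dod-24 was at 21.8 ± 6.39 TPM (SD, n = 3) and 20.4 ± 9.82 TPM (SD, n = 3) in F1KO, and its 7 responses differed by the F test (adjusted p = 0.00177). Both lists hold called genes of either sign.

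**Figure D5:**
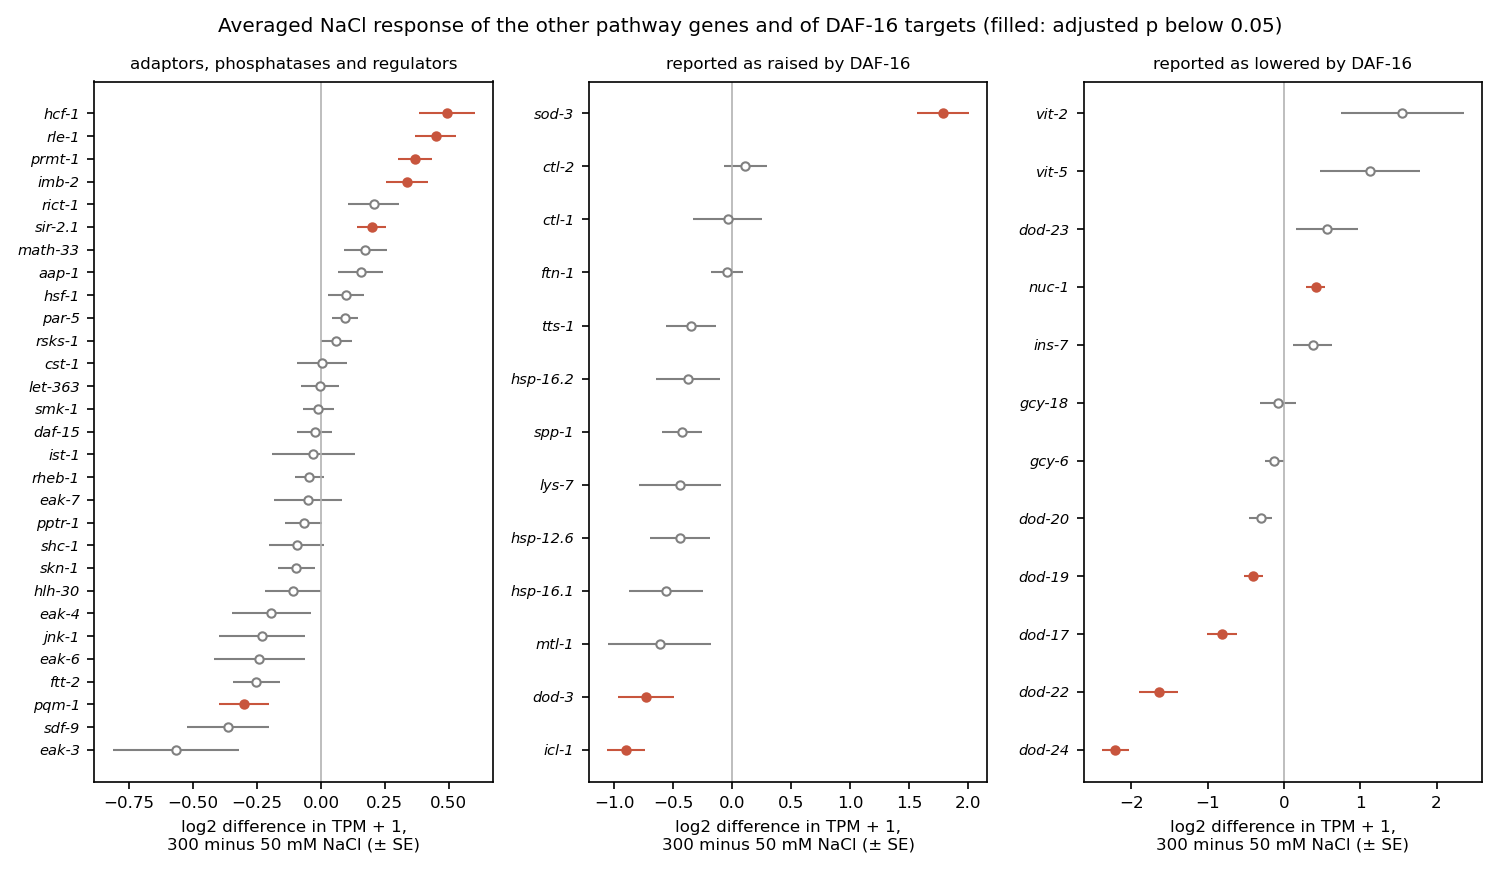
Averaged log2 difference in TPM + 1, 300 minus 50 mM NaCl (horizontal axes, points with SE bars), of 29 pathway regulators, 13 genes reported as raised and 12 reported as lowered by DAF-16, with filled points at an adjusted p below 0.05. Filled points lie on both sides of 0 in each of the 3 lists, with sod-3 at 1.79 and dod-24 at -2.21.

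Likeness to each member was measured by Pearson correlation over the 14 group means of log2(TPM + 1), centred on the mean of each set, among 10475 genes with a mean of at least 5 TPM. The group means within a set share its centring, and no p is given. The genes were ranked with all libraries, the 3 rich in sperm markers included. For sgk-1 the 3 most alike were cdk-12 (r = 0.984), Y67D2.7 (0.974) and yars-1 (0.973), and for akt-2 they were fkh-7 (0.984), Y113G7A.14 (0.983) and R05D7.3 (0.977). daf-2 was most like nhr-119 (0.943), obr-2 (0.941) and pamn-1 (0.939), and akt-1 most like C09D4.1 (0.971), acp-7 (0.970) and gpi-1 (0.968). For daf-18 they were W04D2.4 (0.989), pas-7 (0.985) and rad-23 (0.985), for age-1 dnc-1 (0.991), fli-1 (0.987) and pqn-85 (0.978), and for pdk-1 nhr-13 (0.972), F25E5.1 (0.958) and lon-1 (0.942). The closest to daf-16 were sig-7 (0.868), Y47H10A.5 (0.858) and C14H10.1 (0.856), lower than for any other member. Among the members themselves akt-1 and akt-2 had r = 0.884 and daf-2 had 0.840 with akt-1 and 0.801 with akt-2, while daf-18 had -0.945 with akt-2. Without the 3 libraries these became 0.938, 0.837, 0.814 and -0.641. Of the 24 named genes those that moved most were Y47H10A.5 with daf-16 (0.585), R05D7.3 with akt-2 (0.755) and acp-7 with akt-1 (0.790), and the closest gene to age-1, dnc-1, had 0.907.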

How the data were processed

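RNA over the size limit of small RNAs was sequenced from hatched L1 larvae, with DNase treatment and ribosomal RNA depletion, per the labels' protocols. The authors deposited 1 table of TPM values, a length-normalised unit, per gene and library. The submitters' processing notes name the builds ce11 and WBcel235 and the tool bedtools, while aligner and counter are not given in these sources. TPM keeps no count of reads, so the depth and the counting error of each value are unknown, and TPM shares rise when other genes fall. Each deposited library summed to between 953862 and 999109 TPM. The set G columns carry no gene names of their own, and for 20693 of 30467 lines their values did not stand on the line of their gene. Their order was inferred: it lacks the lines CEGFP, mCherry and s65cGFP and has mars-1 after F58B3.4 and marb-1 before marc-1. The correlation of mean log2(TPM + 1) with the other sets was 0.593 as deposited and 0.988 after the values were moved to this order, beside 0.991 between sets D and F. Gene names turned into dates in 11 lines took the symbol of their gene ID. Of 68 samples, 48 larval libraries were used, and 20 others (embryos and a degron strain) were not analysed here.

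A gene entered a fit when it reached 1 TPM in a number of libraries equal to the smallest group. limma 3.58.1 (trend) in R 4.3.3 was run on log2(TPM + 1) with two-sided tests. P-values were adjusted by Benjamini-Hochberg over every gene of the fit, and an adjusted p under 0.05 was called. A fold change on this scale understates the change of low genes. The averaged response is the unweighted mean of the 7 strain-wise differences in a fit of 48 libraries and 14 group means. N2 enters it from set D and again from set G. The members, the lists and the tests were chosen with earlier results of these data known. The text names the 8 members, up to 4 called genes with the smallest p per list and comparison, and the 3 genes most like each member. The sample titles call the replicates biological and do not say whether they came from separate cultures, and p-values measure the spread between these libraries.

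Whether replicate numbers pair libraries was checked by the correlation of their deviations from group means. Pairing was taken as present where at least 3 pairs all lay above 0.1. That held between exposures in gcp109 (0.381 to 0.432) and F1KO (0.145 to 0.221) and between gcp100 and N2 at 50 mM (0.216 to 0.521). F1het fell just short between exposures (0.0947 to 0.155). Set D had 2 pairs, too few for the rule, with 0.185 in WT and 0.148 in n4117 between exposures. The alternatives were another pseudocount (0.1), no filter, median-of-ratios scaling, a replicate block, limma's array weights and leaving out each library. Leaving out libraries rich in sperm markers (over 100 or over 50 TPM) or set G, and likeness without the former, was added after the data were seen. The fits were tested on simulated data: of 100 genes changed 2-fold, 81 were recovered in the averaged response over 18750 genes and 45 in N2 over 15757 genes. Of the unchanged genes, 12 and 5 were called. The changed genes had a mean of at least 5 TPM, and each gene had normal noise with a spread pooled over all groups. Real N2 libraries correlated pairwise at 0.803 to 0.969 at 300 mM, against 0.971 to 0.985 at 50 mM. The simulation did not hold this difference in spread, so its recovery in N2 may not apply to the real libraries. The members called in the averaged response differed by less than 2-fold, and the simulation held no changes of that size. It therefore cannot tell how often such differences are found.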

Additional observations from a re-analysis of the deposited data

Results flagged for a closer look

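In 6 of 48 member-by-group sets of 4 or 5 libraries, 1 library lay far from the others by Dixon's test, where chance gives about 1 in 20. In N2 at 300 mM, replicate 3 had 155.39 TPM of daf-18 against 16.4 to 32.5 TPM in the others, and 34.82 TPM of age-1 against 13.6 to 18.2 TPM. In gcp100 at 300 mM, replicate 1 had 88.46 TPM of daf-18 against 11.97 to 14.74 TPM. Both libraries are among the 3 with the highest sums of sperm markers, and the part of these in the values was not tested.

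The remaining libraries had no such marker sums. In N2 at 50 mM, replicate 4 had 144.59 TPM of akt-1 against 114 to 122 TPM. In gcp100 at 50 mM, replicate 1 had 33.37 TPM of pdk-1 against 30.5 to 31.2 TPM. In gcp109 at 50 mM, replicate 3 had 26.44 TPM of sgk-1 against 30.5 to 30.7 TPM.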

How the results depend on the processing

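No member changed sign past its threshold under any alternative, and another pseudocount (0.1) changed none of the 21 counts of members called. The averaged count of 3 members (12.3% of all genes) was 6 with array weights (26.5%), 5 without the 3 libraries over 100 TPM of sperm markers (17.8%), 4 without the 5 over 50 TPM (20.4%) and 4 after rescaling (13.97%). Leaving out single libraries gave 1 to 4. The 1 member called in N2 (4.3% of all genes) became 2 after rescaling (5.09%), 3 with array weights (8.75%), and 0 without the 3 or the 5 libraries richest in sperm markers (2.58% and 0.959%), with 0 to 2 when single libraries were left out (2 without 300 mM replicate 3). The 1 member called between gcp109 and N2 at 300 mM (1.45%) became 0 without the filter, after rescaling, with the replicate block and without the 3 or the 5 libraries, 2 with array weights (2.08%), and 0 to 1 when single libraries were left out. In gcp109 the count of 0 (1.35%) became 1 with the replicate block (12.5%) and 1 with array weights (8.01%). The cause of each of these was not tested. For the remaining counts, leaving out single libraries gave 0 throughout, and this was not run for the F test of all 7 responses.

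Over all genes the averaged calls numbered 2415, and 2222 to 5175 over the alternatives. The number was 657 (140 to 1337) in N2, 191 (133 to 1765) in gcp109, 95 (53 to 493) in gcp100, 237 (19 to 340) for gcp109 against N2 at 300 mM, 91 (85 to 762) for the F test, 4 (0 to 356) in F1KO and 1 (1 to 87) in F1het. Where replicate numbers pair the libraries, the block changed no call of a member except daf-2 in gcp109. Elsewhere the rule for pairing was not met or, in set D, could not be applied. In the averaged response, which mixes both cases, the block moved the count from 3 to 4, by akt-1 (15.9% of all genes). With groups of 2 to 5 libraries and unknown depth, differences among strains of the size of their standard errors were not detectable.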

Other observations

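Germline and maternal transcripts were followed as 6 marker genes, and in the averaged salt response 3 of 6 rose, beside 7.1% of all genes that rose and 5.25% that fell. In gcp109 their sum had a median of 8.01 TPM at 50 mM and 38.1 TPM at 300 mM. In N2 the medians were 7.74 and 87.8 TPM, and in gcp100 they were 7.68 and 52.01 TPM. F1het had 4.95 and 7.83 TPM, and F1KO had 10.8 and 19.02 TPM. Among the other markers, 1 of 11 sperm genes and 1 of 7 intestinal genes rose, against the same 7.1%, 1 of 5 pharyngeal genes fell, against 5.25%, and no gene of the neuronal, muscle or hypodermal lists passed the test.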
